A study of Mus musculus with 8 samples.

Results

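The genes described here are the NRF2, glutathione and antioxidant genes of mouse epidermis, measured by bulk RNA-seq in mice whose keratinocytes carry floxed Bmal1 under Cre (Bmal1cKO) and in mice with wild-type Bmal1 (Bmal1WT). They were chosen by symbol, as the protein-coding gene of each of 41 listed names on the GRCm38 annotation, and all 41 were found among the 34070 genes of the count table. All 41 also passed the filter on low counts that left 19646 genes for testing.

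NRF2, encoded by Nfe2l2, is a transcription factor that KEAP1 holds in the cytoplasm and delivers for degradation. Oxidants and electrophiles modify KEAP1, and NRF2 then enters the nucleus, pairs with a small MAF protein and binds antioxidant response elements near genes for glutathione synthesis, thioredoxin and peroxiredoxin cycles, quinone and heme breakdown and NADPH supply. In skin this system buffers the oxidants produced by ultraviolet light and by keratinocyte metabolism, and BMAL1, which binds E-boxes as the partner of CLOCK, has been linked to the daily rhythm of oxidative metabolism in epidermal cells.

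The 4 Bmal1cKO libraries came from adult mice of 18 to 25 weeks in which a keratin 14 promoter drives Cre (K14-Cre) and both Bmal1 alleles are floxed (Bmal1flox/flox), and the 4 Bmal1WT libraries from mice with K14-Cre and wild-type alleles (Bmal1wt/wt). Cre was therefore present in both groups, and it acts in keratin 14-expressing keratinocytes, so other cells of the epidermis keep Bmal1. Every mouse was killed at zeitgeber time 4, that is 4 h after lights on, and polyA RNA of epidermal cell suspensions was sequenced. Whether the libraries came from separate animals is not stated, so the tests weigh differences against library-to-library spread that may be technical in part. No other time of day was sampled, so nothing is said here about rhythms.

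Total counts per library were between 35685261 and 50396156, and the 41 genes together held 0.30 to 0.33% of them. The groups followed their labels in the clock genes. Nr1d1, a direct BMAL1 target, ranged over 1.91 to 3.06 counts-per-million (CPM) in Bmal1cKO libraries and 98.5 to 134 CPM in Bmal1WT libraries (log2 fold change -5.51 ± 0.17, SE, adjusted p = 9.09e-07). Bmal1 itself, listed as Arntl, ranged over 30.7 to 37.6 CPM in Bmal1cKO libraries and 42.0 to 49.1 CPM in Bmal1WT libraries (adjusted p = 0.0611, and 0.0358 with the replicate number as a block). The labels give no sex, but Xist and 4 Y-linked genes showed replicates 1 and 3 to be female and replicates 2 and 4 male in both groups. Keratinocyte markers (Krt5, Krt14, Krt1, Krt10, Trp63, Dsg3) summed to between 22939 and 28731 CPM in Bmal1cKO libraries and between 23704 and 33371 CPM in Bmal1WT libraries, so the tissue matched its label. For markers of terminally differentiated keratinocytes all 8 estimates were below 0, none of them past the test with genotype as the only term, with sums of 780 to 1324 CPM in Bmal1cKO libraries and 1311 to 2856 CPM in Bmal1WT libraries. Within that list Flg (filaggrin) ranged over 34.9 to 90.5 CPM in Bmal1cKO libraries and 130 to 357 CPM in Bmal1WT libraries (log2 fold change -1.85 ± 0.35, adjusted p = 0.103), and it passed with sex as a covariate (adjusted p = 0.0386) and by DESeq2 (adjusted p = 0.00136). The part of this difference in the values below was not tested, and in bulk RNA fewer cells of a type and less RNA per cell cannot be told apart.

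Most of the 41 genes differed little between the genotypes. In the test with genotype as the only term, none of the 41 genes passed an adjusted p of 0.05 (edgeR's quasi-likelihood test with Benjamini-Hochberg adjustment over all genes), where 0.173% of all 19646 genes did. The median log2 fold change, Bmal1cKO over Bmal1WT, was 0.04 over the 41 genes, with 25 values above 0 and 16 below, beside a median of -0.01 over all genes tested. Here and below, CPM means carry the SD over 4 libraries and log2 fold changes their SE. For 31 of the 41 genes the estimate was smaller than 0.2 on the log2 scale in either direction. With the sign ignored, the median estimate was 0.111 over the 41 genes, beside 0.088 over all genes tested. By that measure the 41 genes did not differ less than the typical gene. At an unadjusted p under 0.05, 4 genes were higher in Bmal1cKO (9.76%), where 4.5% of all genes were, and 3 genes were lower (7.32%), where 3.8% were. The higher ones were Osgin1, Prdx4, Tkt and Gpx4, and the lower ones Prdx6, G6pdx and Hmox1. The libraries of the groups did not overlap for 3 genes, Prdx6, Tkt and Hmox2 (7.32%), where 5.15% of all genes showed this.

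Several of these estimates were precise. The 95% confidence interval of the fold change lay wholly within 1.5-fold in either direction for 34 of the 41 genes (82.9%), where 69.4% of all genes met this. The 41 genes are more abundant than most, with a median of 53.7 CPM beside 13.2 CPM over all genes tested, and their median standard error was 0.088 beside 0.109. The genes whose intervals reached past 1.5-fold were Hmox1, Osgin1, Slc7a11, Gpx2, Sod3, Gsta4 and Mgst1, and Slc7a11, Gpx2, Gsta4 and Sod3 had the lowest counts of the set, with 147, 461, 198 and 681 counts over all 8 libraries. For these 4 genes a change of 1.5-fold in at least 1 direction and no change, or nearly none, both lay inside the interval.

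**Figure D1:**
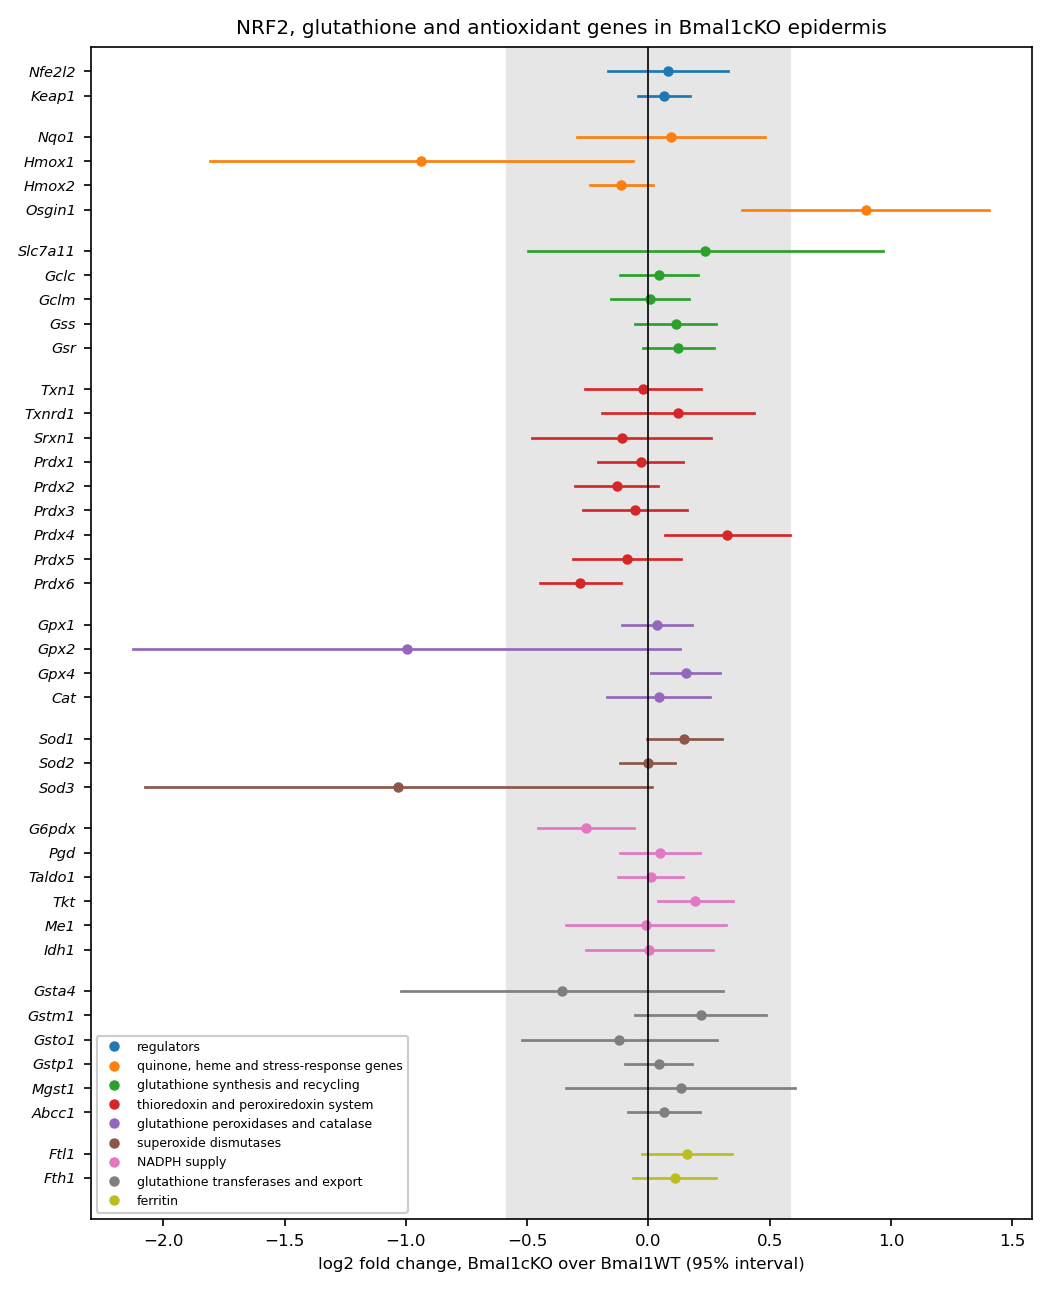
Log2 fold change of each of the 41 genes, Bmal1cKO over Bmal1WT, with its 95% confidence interval (4 libraries per group), coloured by role; the grey band marks 1.5-fold in either direction. Intervals of 34 genes lie inside the band, and the widest belong to Gpx2, Sod3, Hmox1 and Slc7a11.

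NRF2 binds the antioxidant response element, whose core is TGACNNNGC, and BMAL1 with CLOCK binds the E-box CACGTG, so the promoters of these genes were searched for both. RefSeq promoter windows (GRCm38.p6, from 250 bases before to 50 after the annotated start) were found for 34 of the 41 genes. Searched on both strands, the antioxidant response element core was present in at least 1 window of 10 of these 34 genes (29.4%), beside 14.0% of 27025 genes with a window. These 10 were Nfe2l2, Srxn1, Gclm, Prdx1, Pgd, Mgst1, Me1, Txnrd1, Sod1 and G6pdx. The Pgd match lies at +4 from the start used, in transcribed sequence and not upstream of it. Its window (chr4:149166033-149166332) lies wholly inside the gene (chr4:149149991-149166771, minus strand). The Srxn1 match, at +29, also lies after the start. The E-box was present for 1 gene, Prdx4 (2.94%), beside 8.09% of all genes. The windows of Txnrd1, G6pdx and Prdx4 also lie wholly inside the annotated bounds of their genes. The AP-1 site TGACTCA, searched after the first 2 motifs because it can lie inside the antioxidant core, was present for 5 genes (14.7%), beside 5.95% of all genes. With an A required after its last base, the antioxidant core matched 2 genes (5.88%), beside 3.45% of all genes. A match is only a run of letters, and elements farther from the start lie outside these windows. Stretches of 61 bases from 5 windows follow, 5′ to 3′ on the strand of the gene, with the matched letters in capitals. Nfe2l2 is shown because NRF2's own gene holds its core at -240 from the start (chr2:75704853-75704913, minus strand).
Nfe2l2: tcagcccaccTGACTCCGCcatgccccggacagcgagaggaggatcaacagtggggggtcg
G6pdx (chrX:74428903-74428963, minus strand) and Prdx4 (chrX:155338479-155338539, minus strand) are shown as 2 of the 8 genes with the smallest p, with the core on the opposite strand in G6pdx and the E-box in Prdx4.
G6pdx: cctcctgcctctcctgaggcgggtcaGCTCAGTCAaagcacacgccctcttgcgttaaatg
Prdx4: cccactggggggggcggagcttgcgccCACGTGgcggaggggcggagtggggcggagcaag
Prdx1 (chr4:116685440-116685500, plus strand) and Me1 (chr9:86695886-86695946, minus strand) are shown because their core also contains the AP-1 site.
Prdx1: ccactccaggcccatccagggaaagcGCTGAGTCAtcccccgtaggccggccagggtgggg
Me1: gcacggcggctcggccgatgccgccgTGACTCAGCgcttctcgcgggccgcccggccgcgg
Of the 10 genes with the antioxidant core, 1 had an unadjusted p under 0.05 between the genotypes, G6pdx, which was lower in Bmal1cKO. Of all genes tested, 3.8% were lower and 4.5% higher at that threshold. With 10 genes, this count says nothing about genes that hold the core.

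The regulators came first. Nfe2l2 (chr2:75675513-75704641) had 58.0, 60.6, 50.2 and 46.8 CPM in Bmal1cKO replicates 1 to 4, against 46.1, 57.1, 44.3 and 56.2 CPM in Bmal1WT replicates 1 to 4. The groups overlapped across nearly their whole range (log2 fold change 0.08 ± 0.11, SE, adjusted p = 0.916). Keap1 (chr9:21229730-21239361), NRF2's inhibitor, had 60.0, 55.6, 56.9 and 53.9 CPM in Bmal1cKO libraries, against 55.1, 54.2, 53.6 and 53.8 CPM in Bmal1WT libraries. Its libraries lay close together in both groups, and its fold change lay between 0.97 and 1.13 at 95% confidence (adjusted p = 0.806). NRF2 is controlled mainly through protein stability, and these transcript levels do not measure the protein.

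Nqo1, the quinone reductase most often used as a readout of NRF2, differed little. It had 10.9, 9.76, 8.73 and 9.42 CPM in Bmal1cKO libraries, against 7.61, 9.23, 6.98 and 12.5 CPM in Bmal1WT libraries. The Bmal1WT libraries spread on both sides of the Bmal1cKO ones, with the 2 male Bmal1WT libraries the higher pair (log2 fold change 0.09 ± 0.17, adjusted p = 0.942).

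Osgin1 (chr8:119434124-119446256), an oxidative stress-induced growth inhibitor and known NRF2 target, had the smallest p of the 41 genes. It was counted at 6.88, 6.93, 4.57 and 6.07 CPM in Bmal1cKO libraries, against 2.44, 3.36, 2.56 and 4.76 CPM in Bmal1WT libraries. The highest Bmal1WT library, replicate 4, lay above the lowest Bmal1cKO library, replicate 3, so the groups overlapped by these 2 values. The mean was 6.11 ± 1.10 CPM in Bmal1cKO and 3.28 ± 1.07 CPM in Bmal1WT (SD, n = 4 each), a log2 fold change of 0.90 ± 0.23. The unadjusted p was 0.00302 and the adjusted p 0.256. Both sexes had the same direction, with 1.20 in female and 0.68 in male libraries on the log2 scale. DESeq2 gave an adjusted p of 0.0178 for Osgin1, the only one of the 41 genes it called, where it called 1.28% of all genes. The limma voom test called none of the 41 genes, where it called 0.148% of all genes. In edgeR the adjusted p of Osgin1 was 0.0799 with the replicate number as a block and 0.0733 with sex as a covariate.

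The heme oxygenases open heme to biliverdin, iron and carbon monoxide, and Hmox1 is the inducible form. Hmox1 (chr8:75093621-75100589) had 4.21, 4.33, 4.41 and 5.61 CPM in Bmal1cKO libraries, against 7.50, 5.23, 17.9 and 4.76 CPM in Bmal1WT libraries. A single library, Bmal1WT replicate 3, stood far above the rest. With all libraries the log2 fold change was -0.94 ± 0.39 (adjusted p = 0.561), and without Bmal1WT replicate 3 it was -0.33 (adjusted p = 0.760). In female libraries it was -1.56 and in male libraries 0.00. Hmox2, the constitutive form, had 15.5, 15.6, 14.4 and 15.4 CPM in Bmal1cKO libraries, against 15.8, 17.0, 16.3 and 16.7 CPM in Bmal1WT libraries. The groups did not overlap for Hmox2, but the difference was small (log2 fold change -0.11 ± 0.06, adjusted p = 0.666). Exons of Hmox2 overlap those of Cdip1 on the other strand over 892 bases, and the strand setting of the counting is not given in the sources used here. Ftl1, with 40996 counts over all 8 libraries, shares 355 exonic bases with Gm10252 on the other strand, which held 11. Gm22133, which shares 109 bases with Ftl1 on the same strand, held 6479. Gm16754, which shares 510 bases with Keap1 on the other strand, held 426 beside 17857 for Keap1. Whether reads were counted by strand was not tested.

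**Figure D2:**
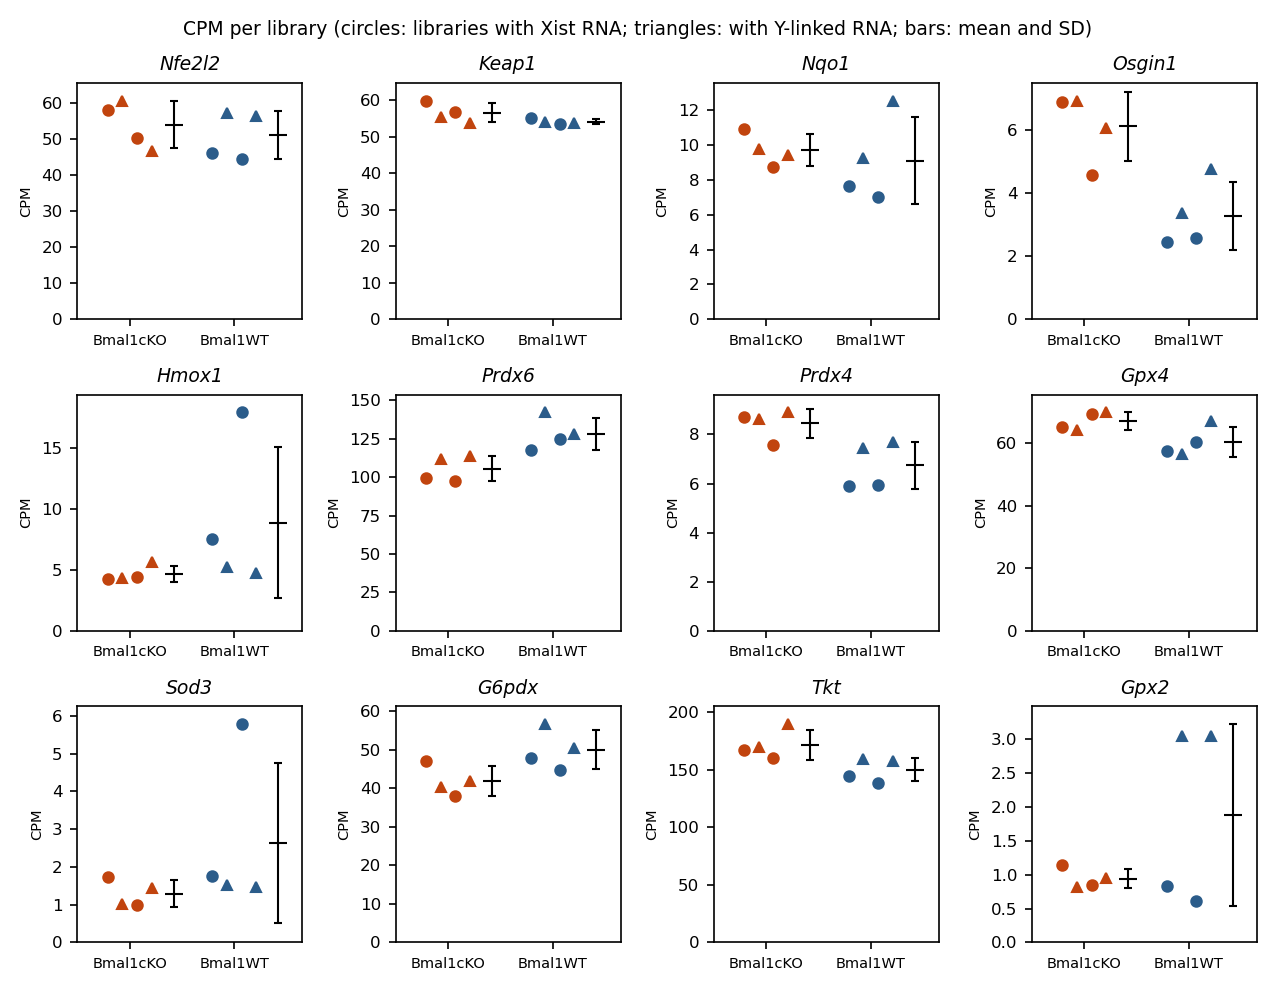
CPM of 12 genes in each library, Bmal1cKO left and Bmal1WT right, with the mean and SD of 4 libraries beside the points; circles are female and triangles male libraries. Every Prdx6 value in Bmal1cKO is below every one in Bmal1WT, Osgin1 values in Bmal1cKO are mostly above those in Bmal1WT, Bmal1WT replicate 3 stands apart in Hmox1 and Sod3, and the male Bmal1WT libraries stand apart in Gpx2.

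Glutathione is built from cystine imported by Slc7a11, by glutamate-cysteine ligase (catalytic subunit Gclc, modifier subunit Gclm) and glutathione synthetase Gss, and is returned to its reduced form by glutathione reductase Gsr. None of these 5 genes had an unadjusted p under 0.05. All 5 estimates were above 0, with a median log2 fold change of 0.11. Gsr averaged 21.2 ± 1.05 CPM in Bmal1cKO and 19.4 ± 1.19 CPM in Bmal1WT (log2 fold change 0.12 ± 0.07, adjusted p = 0.671). Gclc averaged 36.1 ± 3.52 CPM in Bmal1cKO and 35.1 ± 1.33 CPM in Bmal1WT, and its fold change lay between 0.921 and 1.15 at 95% confidence. Gss averaged 14.3 ± 0.936 CPM in Bmal1cKO and 13.2 ± 0.837 CPM in Bmal1WT, and its exons overlap those of Acss2 on the other strand. Slc7a11 was scarce, at 0.362 to 0.665 CPM in Bmal1cKO libraries and 0.322 to 0.692 CPM in Bmal1WT libraries, so its fold change was bounded only between 0.708 and 1.95.

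Gclm counts may include reads of another gene, Ppia, a point noticed after the values were seen and not tested on reads. Gclm was counted at 170 to 189 CPM in Bmal1cKO libraries and 166 to 199 CPM in Bmal1WT libraries. Per kb of exons that is 28.9 ± 1.39 CPM in Bmal1cKO and 28.8 ± 2.65 CPM in Bmal1WT, while its partner subunit Gclc stood at 9.59 ± 0.934 CPM per kb in Bmal1cKO and 9.31 ± 0.354 CPM per kb in Bmal1WT. A noncoding transcript of the gene in GENCODE release M21, Gclm-202, has an exon 3 that overlaps Gm6061, a processed pseudogene of Ppia (cyclophilin A, an abundant prolyl isomerase) on the same strand (chr3:122256728-122257219, GRCm38). The shared 244 bases, chr3:122256728-122256971 on the plus strand, matched the first 244 bases of the 492-base Ppia coding sequence (gene at chr11:6415443-6419817) at 244 of 244 positions. They are shown because a read from Ppia mRNA that falls within them can equally be placed in Gclm; here the sequence is in lower case throughout since every base matches.
Gclm-202 exon 3 and Ppia: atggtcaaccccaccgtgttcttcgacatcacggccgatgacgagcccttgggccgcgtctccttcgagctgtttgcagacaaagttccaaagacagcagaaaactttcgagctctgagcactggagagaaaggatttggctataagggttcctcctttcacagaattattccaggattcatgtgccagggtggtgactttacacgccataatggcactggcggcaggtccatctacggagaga
The counts followed each other across libraries. Gclm counts were 62.97 to 64.9% of Gm6061 counts in Bmal1cKO libraries and 61.6 to 63.3% in Bmal1WT libraries. They were 44.3 to 47.0% of Ppia counts in Bmal1cKO libraries and 43.4 to 45.5% in Bmal1WT libraries. No other pair of genes was compared in this way, so steady percents do not by themselves show shared reads. Abundant genes can move together across libraries: log2 female over male was -0.16 for Gclm, -0.19 for Ppia and -0.17 for Prdx1. Over the 8 libraries Gclm held 58560 counts, Gm6061 92718 and Ppia 130122. Other processed pseudogenes that share 51-base words with Gclm also held many counts: Gm10123 94030, Gm13493 53633 and Gm9234 31891. Whether the same reads were counted at several of these genes was not tested. If the counts of Gm6061 were spread evenly over its start positions for a 51-base read, 40695 of them would lie in the shared stretch, which equals 69.5% of the Gclm counts. That even spread is an assumption, and read positions were not analysed here. The log2 fold change of Gclm (0.01 ± 0.07, adjusted p = 0.995) stood beside that of Ppia (-0.02 ± 0.08, adjusted p = 0.977).

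**Figure D3:**
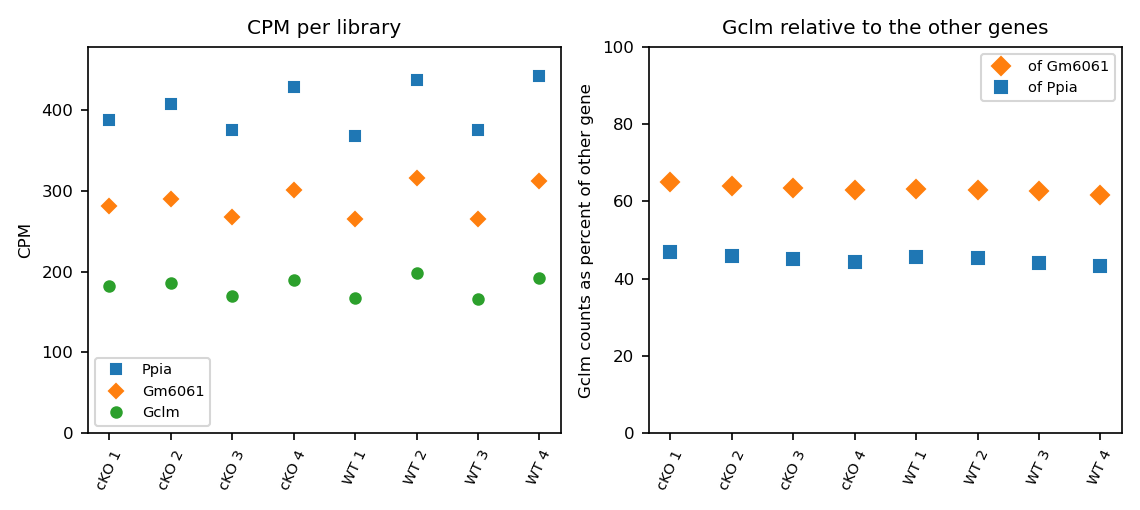
Left, CPM of Ppia, its pseudogene Gm6061 and Gclm in each of the 4 Bmal1cKO and 4 Bmal1WT libraries; right, Gclm counts as a percent of Gm6061 and of Ppia counts in the same libraries. The 3 genes follow each other across libraries, and Gclm stays at 61.6 to 64.9% of Gm6061.

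The thioredoxin and peroxiredoxin system reduces peroxides through cysteine pairs: thioredoxin (Txn1) is recharged by thioredoxin reductase (Txnrd1), it recharges peroxiredoxins, and sulfiredoxin (Srxn1) rescues overoxidised ones. Of these 9 genes, 7 had estimates below 0 and 2 above, with a median log2 fold change of -0.05, and none passed the adjusted test. Prdx6 (chr1:161240112-161251219), the 1-Cys peroxiredoxin that also acts on oxidised phospholipids, had 99.1, 112, 97.7 and 113 CPM in Bmal1cKO libraries, against 118, 142, 125 and 128 CPM in Bmal1WT libraries. Every Bmal1cKO library lay below every Bmal1WT library. The mean was 105 ± 8.21 CPM in Bmal1cKO and 128 ± 10.4 CPM in Bmal1WT, a log2 fold change of -0.28 ± 0.07, with an unadjusted p of 0.00389 and an adjusted p of 0.284. The estimate was nearly the same within each sex, -0.30 in female and -0.26 in male libraries. With sex as a covariate the adjusted p was 0.0499, so Prdx6 passed by a narrow margin, as the only one of the 41 genes, where 0.606% of all genes passed. With the replicate number as a block, the adjusted p of Prdx6 was 0.0709, and none of the 41 genes passed, where 0.774% of all genes did.

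Prdx4, the peroxiredoxin of the endoplasmic reticulum, had an estimate of the other sign. It had 8.71, 8.63, 7.58 and 8.91 CPM in Bmal1cKO libraries, against 5.92, 7.46, 5.94 and 7.67 CPM in Bmal1WT libraries. The lowest Bmal1cKO library, replicate 3, lay just under the highest Bmal1WT library, replicate 4, and the log2 fold change was 0.33 ± 0.11 (adjusted p = 0.463). Within Bmal1WT, the 2 male libraries were the higher pair. The cytosolic Prdx1 averaged 233 ± 13.4 CPM in Bmal1cKO and 238 ± 24.0 CPM in Bmal1WT, and the cytosolic Prdx2 134 ± 9.73 CPM in Bmal1cKO and 147 ± 13.5 CPM in Bmal1WT. The mitochondrial Prdx3 averaged 9.36 ± 1.05 CPM in Bmal1cKO and 9.72 ± 0.579 CPM in Bmal1WT, and Prdx5 199.6 ± 21.3 CPM in Bmal1cKO and 212 ± 25.6 CPM in Bmal1WT. Prdx2 and Prdx5 share exonic bases with genes on the other strand, Junb and Rnaseh2a for Prdx2 and Trmt112 for Prdx5. These 4 fold changes all had intervals within 1.5-fold and adjusted p values of 0.72 or more. Txnrd1 ranged over 39.2 to 47.2 CPM in Bmal1cKO libraries and 31.9 to 53.4 CPM in Bmal1WT libraries, and Srxn1 over 8.59 to 9.86 CPM in Bmal1cKO and 7.28 to 13.3 CPM in Bmal1WT. For both genes the Bmal1WT libraries spread wider, on both sides of the Bmal1cKO ones.

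Glutathione peroxidases use glutathione to reduce peroxides, and catalase (Cat) splits hydrogen peroxide directly. Gpx4, which reduces lipid peroxides in membranes and restrains ferroptosis, had 65.1, 64.0, 69.2 and 69.8 CPM in Bmal1cKO libraries, against 57.2, 56.6, 60.3 and 66.9 CPM in Bmal1WT libraries. Only Bmal1WT replicate 4 reached into the range of the Bmal1cKO libraries (log2 fold change 0.15 ± 0.06, adjusted p = 0.562). Of the 51-base words in Gpx4 transcripts, 34.5% also occur in a transcribed pseudogene, Gpx4-ps2, so its value may include that gene. Gpx1, the abundant cytosolic form, averaged 168 ± 11.4 CPM in Bmal1cKO and 164 ± 10.1 CPM in Bmal1WT, with a fold change between 0.926 and 1.13 at 95% confidence. Catalase averaged 139 ± 19.4 CPM in Bmal1cKO and 135 ± 9.64 CPM in Bmal1WT, with a fold change between 0.888 and 1.19.

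Superoxide dismutases turn superoxide into hydrogen peroxide in the cytosol (Sod1), in mitochondria (Sod2) and outside cells (Sod3). Sod2 was the most even of the 41 genes in Bmal1cKO, at 53.3, 53.8, 53.1 and 54.2 CPM, against 49.5, 55.3, 54.9 and 55.3 CPM in Bmal1WT libraries (log2 fold change -0.00 ± 0.05). Of the 51-base words of Sod2, 20.8% occur in other genes, among them Rps6ka2. Sod1 averaged 43.1 ± 3.12 CPM in Bmal1cKO and 38.8 ± 2.36 CPM in Bmal1WT (0.15 ± 0.07, adjusted p = 0.61). Sod3 had 1.73, 1.03, 0.982 and 1.44 CPM in Bmal1cKO libraries, against 1.77, 1.51, 5.80 and 1.46 CPM in Bmal1WT libraries. As with Hmox1, Bmal1WT replicate 3 alone was high: the log2 fold change was -1.03 ± 0.47 (adjusted p = 0.603), and -0.28 without that library (adjusted p = 0.867). The same library had the highest sum of terminally differentiated markers, 2856 CPM beside at most 1643 CPM in the others, through Lor at 496 CPM and Flg2 at 1532 CPM. Its dermal fibroblast markers summed to 3.47 CPM, the lowest of the 8 libraries. Markers of macrophages and Langerhans cells summed to 212 CPM in Bmal1WT replicate 3, beside 229 CPM in Bmal1cKO replicate 3, the highest. Of that list Cd207 (20.1 CPM) was highest in Bmal1WT replicate 3. Cd68 (6.37 CPM) was level with Bmal1cKO replicate 2 (6.36 CPM), and the others were higher elsewhere. The part of any of these marker lists in the Hmox1 and Sod3 values was not tested.

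NADPH, which recharges glutathione and thioredoxin, comes from the pentose phosphate pathway (G6pdx and Pgd in its oxidative arm, Taldo1 and Tkt in its nonoxidative arm), from malic enzyme Me1 and from isocitrate dehydrogenase Idh1. The largest estimates in the 2 arms had opposite signs. G6pdx (chrX:74409483-74429194), the enzyme of the first step, had 47.2, 40.3, 38.0 and 41.8 CPM in Bmal1cKO libraries, against 48.0, 56.8, 44.8 and 50.4 CPM in Bmal1WT libraries. Only Bmal1cKO replicate 1 lay inside the Bmal1WT range, and the log2 fold change was -0.26 ± 0.09 (adjusted p = 0.453). The gene overlaps Ikbkg on the other strand over 418 exonic bases. Tkt (chr14:30548359-30574720), transketolase, had 167.3, 169.6, 160.0 and 190.4 CPM in Bmal1cKO libraries, against 144.9, 159.9, 138.6 and 157.6 CPM in Bmal1WT libraries. The groups did not overlap, by a small margin between Bmal1cKO replicate 3 and Bmal1WT replicate 2 (log2 fold change 0.19 ± 0.07, adjusted p = 0.473). Pgd, Taldo1, Me1 and Idh1 had log2 fold changes between -0.01 and 0.05. Of these, Taldo1 had the narrowest interval, a fold change between 0.917 and 1.10. For Me1, 22.6% of its 51-base words occur in other genes, mostly in the processed pseudogene Gm7049, so its value may include that gene.

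Glutathione transferases join glutathione to electrophiles, and Abcc1 exports the conjugates. None of these 6 genes had an unadjusted p under 0.05, and the median log2 fold change was 0.05. Gstm1 had the highest estimate, at 60.9 ± 8.21 CPM in Bmal1cKO and 52.4 ± 7.23 CPM in Bmal1WT (0.22 ± 0.12, adjusted p = 0.709). Of the 51-base words of Gstm1, 18.5% occur in other genes, among them Gstm2-ps1 and Gstm3. Gstp1 averaged 37.7 ± 1.44 CPM in Bmal1cKO and 36.6 ± 2.54 CPM in Bmal1WT, and 33.5% of its 51-base words are shared with Gstp2 or a pseudogene. Mgst1 spread widely in both groups, over 26.2 to 48.0 CPM in Bmal1cKO libraries and 27.4 to 48.6 CPM in Bmal1WT libraries. Abcc1 averaged 218 ± 11.9 CPM in Bmal1cKO and 208 ± 15.9 CPM in Bmal1WT. Gsta4, which acts on lipid peroxidation products, was scarce, at 0.365 to 0.745 CPM in Bmal1cKO libraries and 0.552 to 1.03 CPM in Bmal1WT libraries.

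Ferritin stores iron that would otherwise feed radical formation. The heavy chain Fth1 averaged 341 ± 12.5 CPM in Bmal1cKO and 316 ± 32.0 CPM in Bmal1WT (log2 fold change 0.11 ± 0.08, adjusted p = 0.778). The light chain Ftl1 averaged 134 ± 11.3 CPM in Bmal1cKO and 120 ± 11.7 CPM in Bmal1WT (0.16 ± 0.08, adjusted p = 0.667). Reads of Ftl1 are hard to place, since 50.5% of its 51-base words occur in other genes, among them Ftl1-ps1, which the annotation lists as protein-coding, and the processed pseudogenes Gm15590 and Ftl2-ps.

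Divided by exon length, the levels of the 41 genes spanned several orders of magnitude, in much the same order in both genotypes. The highest were Gpx1 (117 ± 7.93 CPM per kb in Bmal1cKO and 114 ± 7.02 in Bmal1WT), Ftl1 (100.1 ± 8.40 in Bmal1cKO and 89.7 ± 8.74 in Bmal1WT), Fth1 (98.2 ± 3.62 in Bmal1cKO and 91.1 ± 9.22 in Bmal1WT) and Prdx5 (93.3 ± 9.98 in Bmal1cKO and 99.3 ± 12.0 in Bmal1WT). The last 3 did not differ from each other beyond their spread. Prdx1 (76.5 ± 4.41 CPM per kb in Bmal1cKO and 78.3 ± 7.90 in Bmal1WT) followed, then Txn1, Me1 and Cat at 51.5 to 57.8 CPM per kb in either genotype, which overlapped. Nfe2l2 (14.2 ± 1.71 CPM per kb in Bmal1cKO and 13.4 ± 1.75 in Bmal1WT) and Keap1 (12.1 ± 0.551 in Bmal1cKO and 11.5 ± 0.140 in Bmal1WT) stood side by side in the middle. Further down stood Nqo1 at 6.24 ± 0.580 CPM per kb in Bmal1cKO and 5.85 ± 1.60 in Bmal1WT, Hmox1 at 2.65 ± 0.374 in Bmal1cKO and 5.05 ± 3.51 in Bmal1WT, and Osgin1 at 2.29 ± 0.411 in Bmal1cKO and 1.23 ± 0.400 in Bmal1WT. Slc7a11 was lowest, at 0.0357 ± 0.00966 CPM per kb in Bmal1cKO and 0.0305 ± 0.0128 in Bmal1WT. Exon length here is the union of all annotated exons, which understates the level of genes with long unused exons. Reads of other genes may raise a level. The share of 51-base words found in other genes was 50.5% for Ftl1, 8.06% for Prdx1, 1.56% for Fth1 and 0% for Gpx1 and Prdx5. The part of such reads in this order was not tested.

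**Figure D4:**
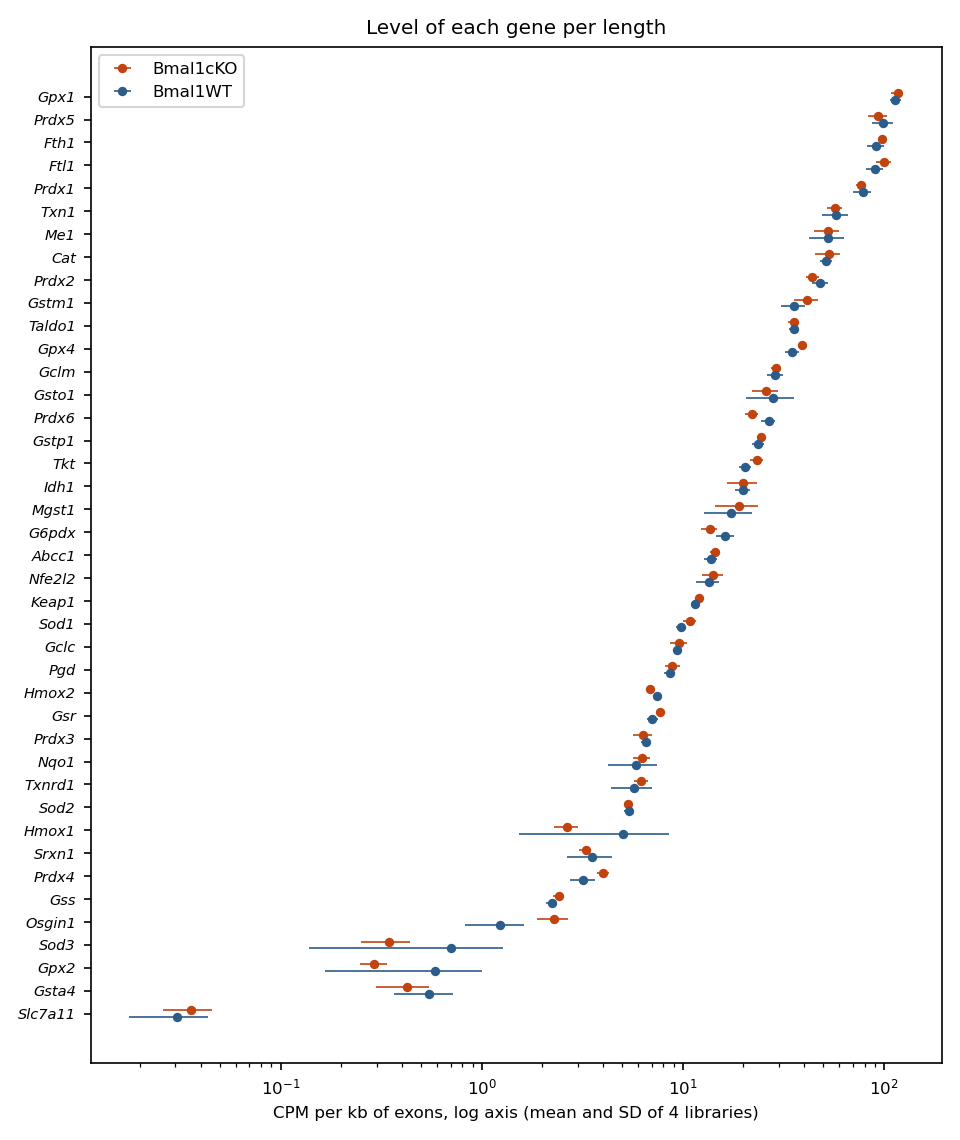
Mean level of each gene per kb of exons on a log axis, with the SD of 4 libraries, Bmal1cKO above Bmal1WT for each gene, ordered by the Bmal1WT level. Gpx1 is highest and Slc7a11 lowest in both groups, and the paired points nearly coincide except for Hmox1, Osgin1, Sod3 and Gpx2.

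Each group held 2 female and 2 male libraries, so the genes were also compared by sex. In a fit with genotype and sex, 2 of the 41 genes differed between female and male libraries at an adjusted p under 0.05 (4.88%), where 1.84% of all genes did. Gsto1, an omega-class glutathione transferase, had 47.0 and 44.1 CPM in female Bmal1cKO, 60.1 and 57.9 in male Bmal1cKO, 43.1 and 45.8 in female Bmal1WT and 75.2 and 63.1 in male Bmal1WT libraries. All 4 female libraries were below all 4 male ones (log2 female over male -0.51 ± 0.08, adjusted p = 0.0194). Txn1 had 54.4 and 56.9 CPM in female Bmal1cKO, 65.5 and 62.2 in male Bmal1cKO, 53.8 and 51.9 in female Bmal1WT and 67.8 and 69.5 in male Bmal1WT libraries. The sexes did not overlap here either (log2 female over male -0.29 ± 0.05, adjusted p = 0.0355). Both calls could be lost when 1 library was left out. Without Bmal1cKO replicate 2, Bmal1WT replicate 1 or Bmal1WT replicate 3, Gsto1 had an adjusted p of 0.0539, 0.0789 and 0.0613. Txn1 had 0.0912, 0.134 and 0.101, and also missed the threshold without Bmal1WT replicate 2 (0.0971) or 4 (0.0983). In these fits the estimate stayed between -0.55 and -0.43 for Gsto1 and between -0.33 and -0.26 for Txn1. DESeq2 with all 8 libraries gave adjusted p values of 2.3e-06 for Gsto1 and 0.00105 for Txn1. Cell markers moved with sex as well. Keratinocyte markers summed to 22939 to 25680 CPM in female and 26216 to 33371 CPM in male libraries, and Krt1 (log2 female over male -1.21, adjusted p = 0.0197) and Casp14 (-0.64, adjusted p = 0.0183) were lower in female ones. Their lists did not move as a whole. Trp63 (0.18), Flg2 (0.59), Lor (0.68), Ivl (0.03) and Cdsn (0.14) were estimated higher in female libraries, none at an adjusted p under 0.05. The remaining genes of both lists were estimated lower, with Krt5 at -0.03. Markers of macrophages and Langerhans cells summed to 185 to 229 CPM in female and 43.4 to 140 CPM in male libraries. Most of that sum was Cd74, with means of 162 CPM in female and 62.9 CPM in male libraries. Cd68 differed little (4.65 and 4.41 CPM, adjusted p = 0.911), and Cd163, too scarce to be tested, was lower in female libraries (0.045 and 0.095 CPM). The other genes of that list were estimated higher in female libraries. The part of these cell markers in the Gsto1 and Txn1 values was not tested. Among the further genes of the pathway described at the end, 1 of 83 differed between the sexes (1.2%), Abcc3, an exporter of conjugates, with a log2 female over male of -0.54 ± 0.10 (adjusted p = 0.0354).

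None of the 41 genes had a genotype difference that itself differed between the sexes at an adjusted p under 0.05, where 0.00509% of all genes did, which is 1 gene, Krt2. Gpx2, singled out after its values were seen, came closest. Gpx2, a glutathione peroxidase known mainly from the gut epithelium, had 1.14 and 0.842 CPM in female Bmal1cKO, 0.824 and 0.958 in male Bmal1cKO, 0.831 and 0.611 in female Bmal1WT and 3.05 and 3.04 in male Bmal1WT libraries. Only the 2 male Bmal1WT libraries were high. The log2 fold change, Bmal1cKO over Bmal1WT, was -0.997 ± 0.50 over all libraries (adjusted p = 0.651), 0.47 in female libraries (adjusted p = 0.878) and -1.77 in male libraries (adjusted p = 0.0437). The difference between the sexes, 2.24, had an unadjusted p of 0.00036 and an adjusted p of 0.471. Without Bmal1WT replicate 2 the overall value was -0.66, and without replicate 4 it was -0.65. Krt2, a keratin of late differentiation in a limited set of body sites, had the same shape, with 5.95 and 3.87 CPM in female Bmal1cKO, 2.96 and 3.14 in male Bmal1cKO, 5.81 and 5.23 in female Bmal1WT and 45.7 and 48.1 in male Bmal1WT libraries (difference between the sexes 3.78, adjusted p = 0.00716). The part of Krt2-expressing cells in the Gpx2 values was not tested.

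**Figure D5:**
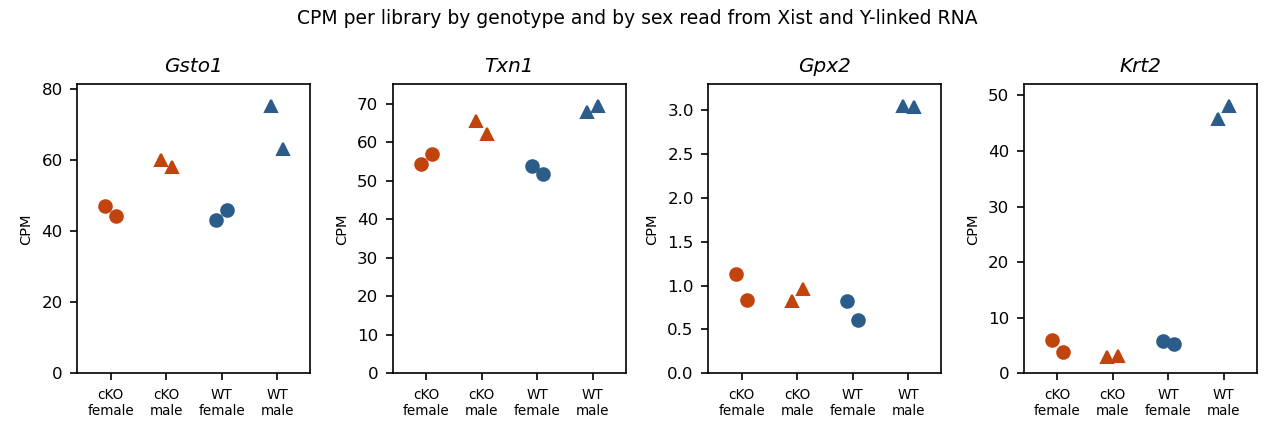
CPM per library of Gsto1, Txn1, Gpx2 and Krt2, by genotype and sex read from Xist and Y-linked genes, 2 libraries in each of the 4 classes. Gsto1 and Txn1 are lower in female than in male libraries of both genotypes, while Gpx2 and Krt2 are high only in male Bmal1WT libraries.

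Of 85 further genes listed for NRF2 partners and turnover, other glutathione transferases, peroxidases, thioredoxins and glutaredoxins, glutathione turnover, detoxification and iron, 83 were tested. None passed the adjusted test, 4 had an unadjusted p under 0.05 with higher values in Bmal1cKO (4.82%, beside 4.5% of all genes tested) and 4 with lower values (4.82%, beside 3.8%). The groups did not overlap for 2, Slc40a1 and Ephx1 (2.41%, beside 5.15%). Their median log2 fold change was -0.01. The 95% interval of the fold change lay within 1.5-fold for 59 of the 83 genes (71.1%, beside 69.4% of all genes tested). The 11 genes for NRF2 partners, rivals and turnover (Nfe2l1, Nfe2l3, Maff, Mafg, Mafk, Bach1, Bach2, Cul3, Rbx1, Btrc and Sqstm1) had log2 fold changes between -0.19 and 0.10, none with an unadjusted p under 0.05. Among the 17 further glutathione transferases 11 had estimates below 0 and 6 above, where 10408 of all 19646 genes tested were below 0. An unadjusted p under 0.05 was seen for 3 of the 17, where 1631 of the 19646 had one. These were Gsta2 (log2 fold change -0.39) and Mgst2 (-0.69), lower in Bmal1cKO, and Gstm2 (0.19), higher. Other genes with an unadjusted p under 0.05 were Ephx1, Msrb3, Aifm2 and Idh2, with adjusted p values of 0.427 to 0.585.

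Slc40a1 (ferroportin, the only known cellular iron exporter) had the smallest p of the 83. It had 28.6, 20.3, 22.0 and 19.7 CPM in Bmal1cKO libraries, against 34.8, 29.6, 30.2 and 29.0 CPM in Bmal1WT libraries. The groups did not overlap, with replicate 1 the highest library of each group. The log2 fold change was -0.45 ± 0.12, with an adjusted p of 0.285, and with the replicate number as a block it was -0.46 ± 0.07 with an adjusted p of 0.0321. DESeq2 gave an adjusted p of 0.0469. Tfrc, the transferrin receptor that imports iron, ranged over 40.6 to 60.2 CPM in Bmal1cKO libraries and 50.2 to 54.5 CPM in Bmal1WT libraries, with a log2 fold change of -0.03 ± 0.11.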

How the data were processed

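The deposited values were whole-number counts per Ensembl gene, not normalized, which the authors made with Trim Galore, STAR 2.7.10a and featureCounts on GRCm38 (mm10), per the submitters' processing notes. The annotation release and the strand and multi-mapping settings were not given in the sources used. GENCODE M21 named 33974 of 34070 identifiers. Members and gene lists were chosen with earlier results of these data known.

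The count test was edgeR 4.0.16, run in R 4.3.3: filterByExpr (minimum count 10, minimum total 15), TMM scaling, and the two-sided quasi-likelihood F-test with genotype as the only term, adjusted by Benjamini-Hochberg over 19646 genes and called under 0.05. CPM used TMM-scaled library sizes. Errors are SD over 4 libraries for CPM and SE for log2 fold changes. DESeq2 1.42.0, voom in limma 3.58.1, other scalings and filters, a replicate block, sex as a covariate, each sex alone and each library left out were alternatives. The procedure was checked on simulated data.

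Per-library values are given for Nfe2l2, Keap1, Nqo1, the members with the 8 smallest p, and those called under a block, a sex covariate or between sexes. Hmox2, Sod2, Gclm, Gpx2, Krt2 and the pathway genes named other than Slc40a1 were added after their values were seen. Replicate numbers come from the titles, and deviations from the group mean were correlated between equal numbers (correlations 0.35, 0.51, 0.41 and 0.38 across genes, all over the minimum of 0.1), which by the rule used pairs equal numbers. Crossed libraries of the same sex gave 0.12 to 0.36. The SE and adjusted p values above nevertheless come from the fit without this pairing, unless another fit is named. The block narrowed some estimates and widened others. The SE of Gstm1 was 0.06 with the block (adjusted p = 0.193) and 0.12 without it, and that of Gsr 0.074 with the block and 0.065 without it. No libraries of a group agreed within sampling noise (chi-square per degree of freedom 13.1 or more). PCR duplicates were not identified, so counting error is a lower limit.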

Additional observations from a re-analysis of the deposited data

Results flagged for a closer look

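Within a group of 4 libraries, a value counted as standing apart when its gap to the nearest library exceeded Dixon's 95% critical value, as a share of the group's range. This happened in 7 of 82 sets, and chance alone gives about 1 in 20. Of the 7, 2 were in Bmal1cKO: Hmox1 at 5.61 CPM in replicate 4, where the next was 4.41, and Hmox2 at 14.4 CPM in replicate 3, where the next was 15.4. The other 5 were in Bmal1WT. Sod3 was at 5.80 CPM in replicate 3, where the next was 1.77, and Prdx3 at 8.85 CPM in the same library, where the next was 9.99. Slc7a11 was at 0.692 CPM in replicate 2, where the next was 0.355, and Gsta4 at 1.03 CPM in the same library, where the next was 0.618. Sod2 was at 49.5 CPM in replicate 1, where the next was 54.9. The Hmox1 value of Bmal1WT replicate 3, although larger, fell under the critical value.

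The genotype difference of the marker Krt2 differed between female and male libraries by 3.78 on the log2 scale in edgeR's interaction test (adjusted p = 0.00716), with 2 libraries in each class.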

How the results depend on the processing

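Over the whole table edgeR called 34 genes, against 71 with no filter on low counts, 252 by DESeq2, 152 with the replicate block, 119 with sex as a covariate, 13 in female and 101 in male libraries, and 23 to 32 with 1 library left out. Members called numbered 0 in every one of these fits except 1 by DESeq2 (Osgin1, higher), 1 with sex as a covariate (Prdx6, lower) and 1 in male libraries (Gpx2, lower). The replicate block called 1 further pathway gene (Slc40a1), as did DESeq2 (1, the same gene), and beside Arntl changed no other call among members and pathway genes. Members called between the sexes ranged from 0 to 2 with 1 library left out. The longer core, with A after the last base, matched 2 members (5.88%, beside 3.45% of all genes) instead of 10. The sign differed from that over all libraries for 10 of 41 members in female libraries, where none was called, and for 6 in male libraries, none of them called. Gpx2, called in male libraries at -1.77, was 0.47 in female libraries. The stricter filter kept 38 of the 41 members. The median over members stayed between 0.02 and 0.06. Slc7a11 and Gsta4 had the fewest counts, while in Gpx2, Sod3 and Hmox1 1 or 2 Bmal1WT libraries stood far above the others, and 4 libraries a group limit every estimate. With 2 libraries per sex and genotype, within-sex tests have little precision. The cause of these differences was not tested.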
